A study of Mus musculus with 6 samples.

Results

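Topoisomerases cut, pass and reseal DNA strands to release the twist that builds up when DNA is copied or transcribed, and tyrosyl-DNA phosphodiesterases remove a topoisomerase that has become stuck to a DNA end. Irinotecan is a prodrug whose active metabolite traps topoisomerase I on the DNA it has cut, so the group holds the drug target, its paralogues and the enzymes that clear a trapped topoisomerase. The members were chosen by gene name, Top1, Top1mt, Top2a, Top2b, Top3a, Top3b, Tdp1 and Tdp2. All 8 were found among the 25251 genes of the deposited table, and all 8 passed the filter on low values that left 14639 genes to test.

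RNA was sequenced from subcutaneous tumours of CT26, a mouse colon carcinoma cell line, grown in BALB/c mice and labelled with a wild-type genotype. The 3 irinotecan libraries came from mice given 25 mg/kg of the drug (CPT-11) into the peritoneum every 4 days, and the 3 control libraries came from mice labelled as given solvent. Treatment began after randomization at a tumour volume of 100 mm3. The sources used here do not give the age of the mice, the number of doses or how long after dosing tumours were collected. The labels list 3 libraries a group, although the series text mentions duplicates. They do not tie each library to its own mouse, and p-values here therefore describe only how far these libraries vary, which may be technical.

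The libraries held 13940650 to 15656894 reads, and 159 to 13310 of them fell on each member in each library. The library of irinotecan replicate 1 was unlike the rest, with correlations across genes of 0.9324 to 0.9406 with the other 5 libraries, against 0.9748 to 0.9846 for pairs among those, so results are also given without it. The labelled colon cancer cell was checked against 8 epithelial markers. Of these, 4 passed the filter on low values. Krt20, an intestinal keratin, had 1608 to 2098 normalized counts, Krt8 and Krt18 had 37.0 to 149, and Cdh1 had only 11.1 to 38.0. Epcam, the epithelial adhesion gene, was listed at 0 in 5 of the 6 libraries, with Krt19, Vil1 and Cdx2 also under the filter. Normalized counts are read counts divided by 1 factor per library. These are whole tumours, so for any gene fewer cells of a type and less RNA per cell cannot be told apart.

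None of the 8 genes passed the test for a difference between irinotecan and control tumours. The largest difference was that of Top2a, the topoisomerase II of dividing cells, at 1.30-fold, and Top1, the drug target, was at 1.01-fold. Limma at a Benjamini-Hochberg adjusted p under 0.05 over all genes called 0 of 8 members, and it also called 0% of all genes tested. At an unadjusted p under 0.05, the main limma fit and edgeR found 0 members and DESeq2 found 1, Top2a (unadjusted p = 0.0427). The shares of all genes were 5.77%, 5.94% and 6.59% by limma, edgeR and DESeq2. Under some alternatives given below, limma also put Top2a under 0.05 before adjustment. DESeq2 called 0 members at an adjusted p under 0.05, against 0.355% of all genes, and also 0 without irinotecan replicate 1, against 1.11%. Each gene's 95% interval, which is not widened for 8 genes, excluded a 2-fold change in either direction. The lower bounds ran from 0.678-fold to 0.986-fold and the upper bounds from 1.22-fold to 1.71-fold. On the log2 scale the median over the members was 0.02 with 5 positive and 3 negative values, and over all genes tested it was -0.01 with 48.2% positive. Without irinotecan replicate 1, 6 were positive and 2 negative, with 49.6% of all genes positive, the intervals ran from 0.668-fold at the lowest to 1.39-fold at the highest, and limma called 0 members (adjusted p 0.578 to 0.990).

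**Figure D1:**
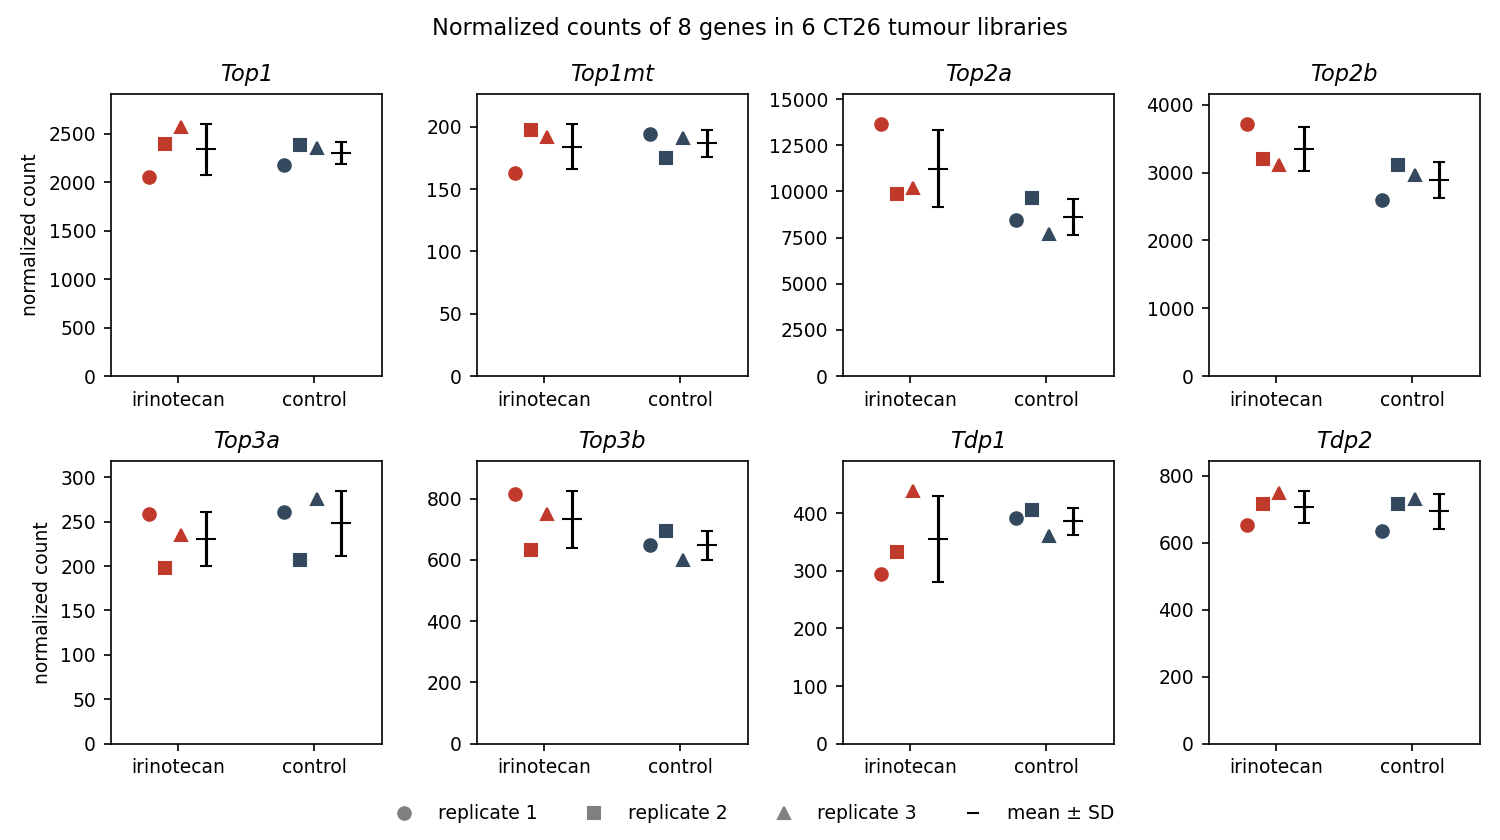
Normalized counts (y axis, from 0, a separate scale for each gene) of the 8 genes in the 3 irinotecan and 3 control libraries, with the symbol giving the replicate and the bar giving mean ± SD. The irinotecan libraries lie above all controls for Top2a and, narrowly, for Top2b, and the groups overlap for the other 6 genes.

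Topoisomerase I enzymes nick a single strand. Top1 (ENSMUSG00000070544) encodes the nuclear enzyme and lies on the plus strand of chromosome 2 from 160645888 to 160722764 (GRCm38). It had 2059, 2393 and 2575 normalized counts in irinotecan replicates 1, 2 and 3, against 2178, 2385 and 2354 in control replicates 1, 2 and 3. The irinotecan libraries held both the lowest and the highest value, so the groups overlapped fully. Its fold change of 1.01 had a 95% interval of 0.819 to 1.25 (limma adjusted p = 0.969). The coefficient of variation was 11.2% among irinotecan libraries and 4.83% among controls, where the medians over all genes tested were 22.3% and 11.8%. Irinotecan replicate 1 was the lowest of the 6. Without it, both remaining irinotecan libraries lay above all controls, as they did for 12.8% of all genes, and the fold change was 1.08 with an interval of 0.928 to 1.25 (limma adjusted p = 0.770).

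Top1mt (ENSMUSG00000000934) encodes the mitochondrial topoisomerase I, which acts on the mitochondrial genome, and lies on the minus strand of chromosome 15 from 75657035 to 75678800. It had 163, 197 and 192 normalized counts in irinotecan libraries, against 194, 175 and 191 in controls. These groups also overlapped, with irinotecan replicate 1 again the lowest of all. The fold change was 0.984, with an interval of 0.742 to 1.31 (limma adjusted p = 0.971), and it was 1.04 without irinotecan replicate 1, on the other side of no change. It is the member with the fewest reads, 159 to 208 per library.

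Topoisomerase II enzymes cut both strands and pass another duplex through the gap. Top2a (ENSMUSG00000020914), which untangles chromosomes before they separate in mitosis and is made mainly in dividing cells, lies on the minus strand of chromosome 11 from 98992943 to 99024189. It had 13667, 9874 and 10181 normalized counts in irinotecan libraries, against 8465, 9647 and 7700.0 in controls. All 3 irinotecan libraries lay above all 3 controls, although replicate 2 did so by little, and replicate 1 was far above the rest. The means were 11241 ± 2106 with irinotecan and 8604 ± 981 in controls (SD, n = 3 each). On the log2 scale the difference of 0.38 (SE 0.173, interval -0.02 to 0.77) did not pass (limma adjusted p = 0.743). The authors' deposited table lists Top2a at a log2 fold change of 0.39, with an unadjusted p of 0.0462 and an adjusted p of 0.802, and that table has 3.97% of its genes at an unadjusted p under 0.05 and 0.186% at an adjusted p under 0.05. Without irinotecan replicate 1 the log2 fold change was 0.23 (SE 0.115, limma adjusted p = 0.578), and irinotecan replicates 2 and 3 still lay above all controls. When each library was first corrected for a trend over GC content and gene length, it was 0.20.

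Top2b (ENSMUSG00000017485) encodes the topoisomerase II found in dividing and resting cells alike, and lies on the plus strand of chromosome 14 from 16365179 to 16435462. It had 3718, 3206 and 3115 normalized counts in irinotecan libraries, against 2597, 3114 and 2963 in controls. The groups did not overlap, but the lowest irinotecan library and the highest control were about 1 normalized count apart. The means were 3346 ± 325 with irinotecan and 2891 ± 266 in controls (SD, n = 3 each), a fold change of 1.16 with an interval of 0.931 to 1.44 (limma adjusted p = 0.743). Top2a and Top2b were the 2 members whose irinotecan libraries all lay above the controls, as did those of 6.68% of all genes tested, and no member lay wholly below, against 7.89% of all genes. The log2 fold change of Top2b was 0.13 without irinotecan replicate 1, and it turned to -0.12 under the correction for GC content and length. The gene shares 4624 bases with Rarb, a retinoic acid receptor gene on the opposite strand, which had a mean of 33.5 normalized counts. Whether reads were assigned by strand is not known.

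The type IA enzymes pass single strands and work with partner proteins. Top3a (ENSMUSG00000002814), which joins the BLM helicase and RMI proteins to resolve linked DNA duplexes, lies on the minus strand of chromosome 11 from 60740058 to 60777365. It had 259, 197 and 235 normalized counts in irinotecan libraries, against 261, 207 and 276 in controls. The groups overlapped, and the fold change of 0.931 had an interval of 0.684 to 1.27 (limma adjusted p = 0.874). Without irinotecan replicate 1 its log2 fold change was -0.19, and without irinotecan replicate 2 it was 0.0034.

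Top3b (ENSMUSG00000022779), whose product binds TDRD3 and also acts on RNA, lies on the plus strand of chromosome 16 from 16870736 to 16892990. Top3b had 814, 633 and 750.0 normalized counts in irinotecan libraries, against 649, 695 and 599 in controls. Irinotecan replicates 1 and 3 lay above all controls and replicate 2 lay among them. The fold change was 1.13, with an interval of 0.887 to 1.43 (limma adjusted p = 0.762), and the log2 fold change was 0.17 with all libraries and 0.09 without irinotecan replicate 1.

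The phosphodiesterases clear what the topoisomerases leave. Tdp1 (ENSMUSG00000021177), which releases trapped topoisomerase I from DNA, lies on the plus strand of chromosome 12 from 99884517 to 99955219. It had 295, 332 and 438 normalized counts in irinotecan libraries, against 391, 406 and 360.2 in controls. The irinotecan libraries spread beyond the controls on both sides, with a coefficient of variation of 20.9% against 6.01%, the widest of the 8 genes with irinotecan. The medians over all genes tested were 22.3% with irinotecan and 11.8% in controls. The fold change was 0.909, with an interval of 0.678 to 1.22 (limma adjusted p = 0.822). The log2 fold change was -0.14 with all libraries and -0.01 without irinotecan replicate 1.

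Tdp2 (ENSMUSG00000035958), which releases trapped topoisomerase II, lies on the plus strand of chromosome 13 from 24831679 to 24842153. It had 653, 717 and 747 normalized counts in irinotecan libraries, against 634, 716 and 730.1 in controls. The values of the groups covered nearly the same range. The fold change was 1.02, with an interval of 0.819 to 1.27 (limma adjusted p = 0.957).

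**Figure D2:**
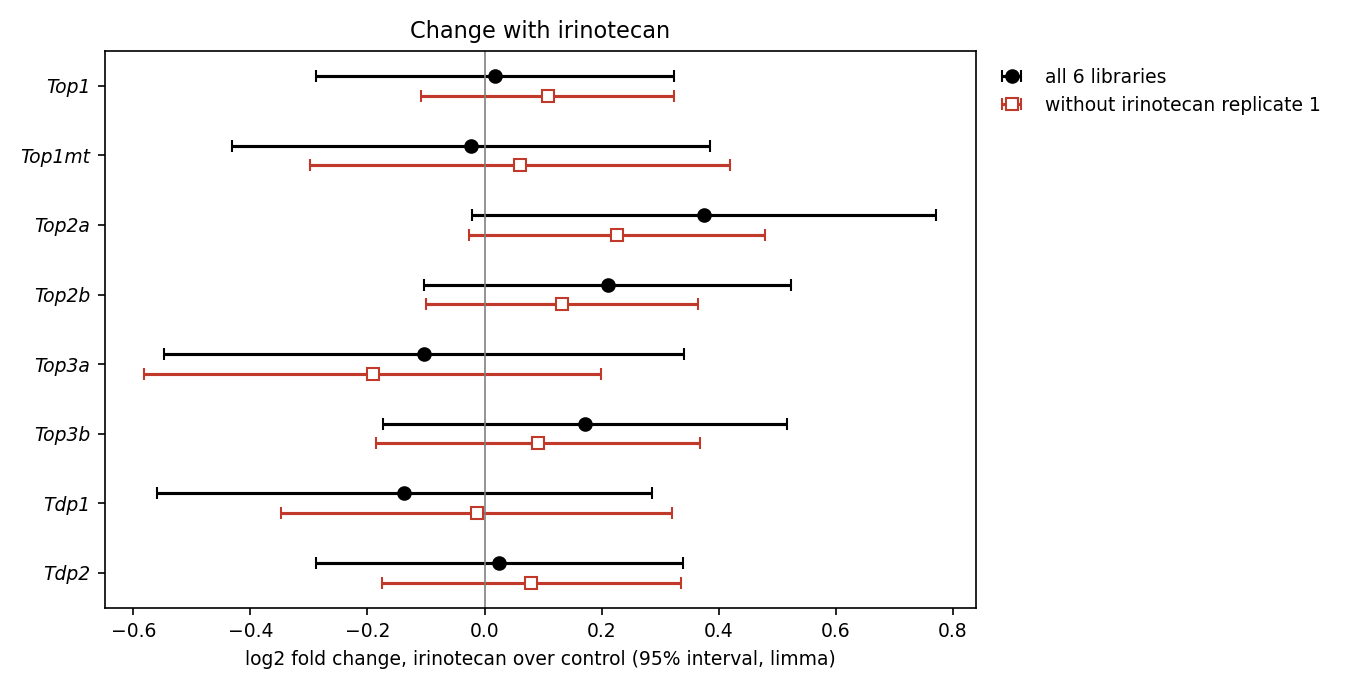
Log2 fold change of irinotecan over control (x axis) for each gene with its 95% interval from limma, with all 6 libraries (black circles) and without irinotecan replicate 1 (open squares). All intervals include 0, and Top2a lies farthest from it at 0.38 with all libraries and 0.23 without that library.

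Levels were set side by side by dividing each by the deposited gene length. Which transcripts that length covers is not stated, so the order of genes holds on this scale only. Per kilobase, Top2a had 1247 ± 234 normalized counts with irinotecan and 955 ± 109 in controls (SD, n = 3 each), with a range of 854 to 1516, which placed its mean at the 96.3rd percentile of the genes tested. Top1 (197 to 247 per kilobase), Top2b (178 to 254) and Tdp2 (193 to 227) followed at the 74.7th, 73.7th and 73.6th percentiles, and their ranges overlapped, so no order among these 3 can be drawn. Top1mt (79.9 to 96.6) and Top3b (71.4 to 96.9) overlapped near the median of all genes, 91.3 per kilobase. Top3a (42.9 to 60.01) and Tdp1 (36.9 to 54.8) overlapped at the low end, at the 36.3rd and 34.1st percentiles. The 4 levels were separate from each other, with no library of a lower set reaching the range of a higher one.

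The balance between the enzymes was read as ratios of levels per kilobase within each library. The size of these ratios depends on the deposited lengths. The ratio of Top2a to Top2b was 5.96, 4.99 and 5.30 in irinotecan libraries, against 5.28, 5.02 and 4.21 in controls, and the groups overlapped. Top2a made up 68.9%, 62.3% and 61.9% of the summed level of the 6 topoisomerases with irinotecan, against 60.4%, 62.0% and 56.7% in controls. These shares overlapped too, and the highest was that of irinotecan replicate 1. The ratio of the drug target to the enzyme that clears it, Top1 to Tdp1, was 5.35, 5.52 and 4.51 with irinotecan, against 4.27, 4.50 and 5.01 in controls. This ratio also overlapped between the groups.

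**Figure D3:**
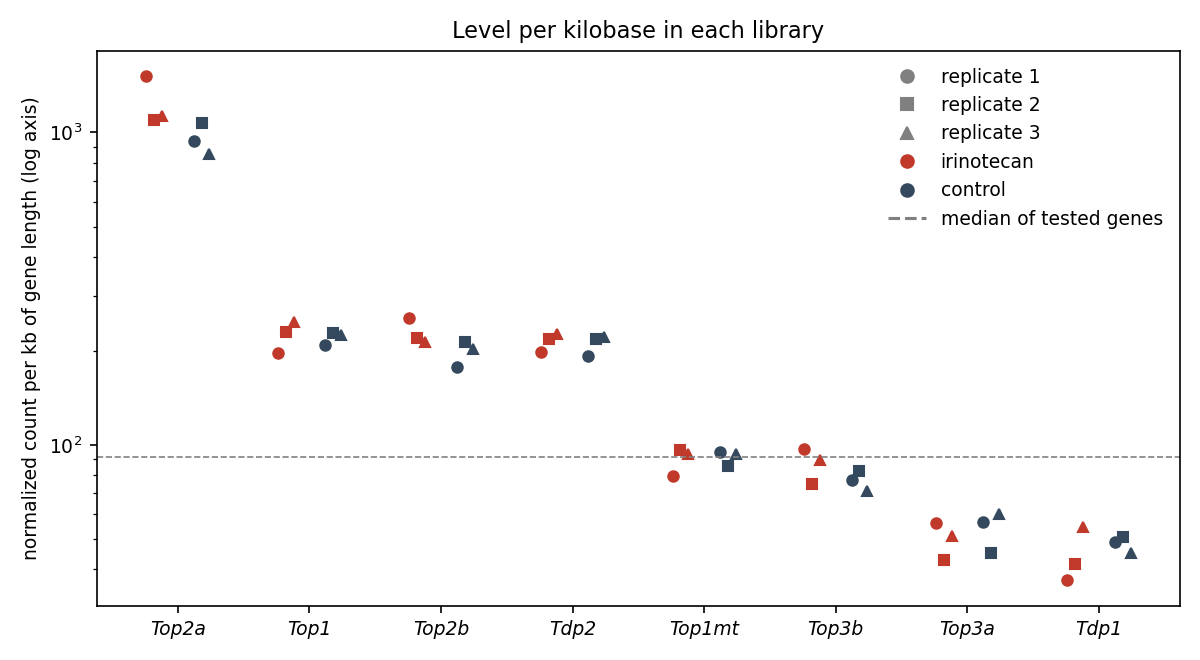
Normalized counts per kilobase of deposited gene length (log y axis) of each gene in the 6 libraries, irinotecan left of control within each gene, with the symbol giving the replicate and the dashed line the median of all genes tested (91.3). Top2a lies above all other members in every library.

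The stretches before the starts of Top2a, Top2b and Top1 are shown because the first 2 are the members whose irinotecan libraries all lay above the controls and Top1 is the drug target. RefSeq windows were found for 5 of the 8 members (Top1, Top2a, Top2b, Top3b and Tdp1). Each sequence is the 250 bases before the RefSeq start on GRCm38.p6, in the direction of the gene, and capitals mark CCAAT or its reverse ATTGG and TTTGAA or its reverse TTCAAA. The Top2a window is chr11:99024190-99024439 (minus strand), that of Top2b chr14:16364956-16365205 (plus strand) and that of Top1 chr2:160645647-160645896 (plus strand). For Top1 and Top2b the RefSeq start lies a short way inside the gene as the deposited table places it, so the last bases of these windows fall within the coordinates given above.
Top2a: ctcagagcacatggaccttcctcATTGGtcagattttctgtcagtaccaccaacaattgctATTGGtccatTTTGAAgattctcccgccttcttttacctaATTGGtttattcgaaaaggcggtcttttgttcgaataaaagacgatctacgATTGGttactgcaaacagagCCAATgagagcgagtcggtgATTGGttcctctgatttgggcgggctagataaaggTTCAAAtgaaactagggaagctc
Top2b: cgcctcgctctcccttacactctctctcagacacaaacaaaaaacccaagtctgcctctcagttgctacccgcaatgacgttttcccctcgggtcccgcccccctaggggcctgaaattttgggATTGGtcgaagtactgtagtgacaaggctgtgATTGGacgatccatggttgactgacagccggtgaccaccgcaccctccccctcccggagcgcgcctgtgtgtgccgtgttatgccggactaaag
Top1: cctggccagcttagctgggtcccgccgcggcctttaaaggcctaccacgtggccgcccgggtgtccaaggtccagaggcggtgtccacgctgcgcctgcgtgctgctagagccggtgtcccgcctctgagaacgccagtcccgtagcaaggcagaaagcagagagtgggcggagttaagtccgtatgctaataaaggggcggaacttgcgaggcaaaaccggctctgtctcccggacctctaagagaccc

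Top2a held CCAAT in this window at 78 bases before the start and ATTGG at 227, 189, 149, 98 and 58 bases, counted from the first base of each match, with TTTGAA at 179 and TTCAAA at 23. Top2b held ATTGG at 126 and 94 bases and no TTTGAA, and Top1 held neither motif in these letters on either strand. Of the members whose windows are not shown, Tdp1 held TTTGAA at 39 bases and Top3b held CCAAT at 243. No 2 of the marked matches overlap. CCAAT on either strand was present in 33.8% of the 32851 windows of this length, and TTTGAA in 16.0%. Among 19 of 24 mitotic genes with a window, 15 held CCAAT (78.9%) and 8 held TTTGAA (42.1%). These are matches of letters, with no test.

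The mitotic genes are a list of 24 genes used in cell division that are expressed together with Top2a. None passed (limma, over all genes tested), and 15 had a positive and 9 a negative log2 fold change, with a median of 0.07. Cenpf, a kinetochore protein gene, had 4628, 3311 and 3959 normalized counts in irinotecan libraries, against 2762, 2861 and 2142 in controls, with no overlap, and a log2 fold change of 0.61 (SE 0.174, limma adjusted p = 0.743). Kif11, a spindle motor gene, had 2530.0, 2225 and 2196 with irinotecan, against 2060 (2059.5), 1896 and 1664 in controls, also with no overlap (log2 fold change 0.31, SE 0.137). With Ccnb1, these were the 3 of 24 mitotic genes whose irinotecan libraries all lay above the controls, against 6.68% of all genes tested. Without irinotecan replicate 1 all 24 had a positive log2 fold change, against 49.6% of all genes, with a median of 0.15, and still none passed. Because these genes are expressed together, the 24 signs are not 24 separate results. The proliferation marker Mki67 was at 0.22 (SE 0.152) with all libraries, and it was chosen for mention after its values were seen.

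Set against the geometric mean of the mitotic genes in the same library, Top2a stood at 7.84, 4.76 and 4.63 in irinotecan libraries, against 4.19, 5.03 and 4.33 in controls. Irinotecan replicate 1 alone was outside the range of the controls. The median of the mitotic genes relative to the control mean was -0.08 (log2) in that library, where Top2a was at 0.67. In irinotecan replicates 2 and 3 Top2a was at 0.20 and 0.25, and the mitotic genes were at 0.10 and 0.21.

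Beyond the members, 8 lists of pathway genes held 117 names, of which 116 were in the table and 115 passed the filter on low values. Limma called 0 higher and 0 lower, edgeR and DESeq2 also called 0, and 3 had an unadjusted limma p under 0.05 (Ercc1, Samhd1 and Cenpf), or 2.61%, against 5.77% of all genes tested. Without irinotecan replicate 1 limma again called none of them, and the list medians given below then lay between -0.03 and 0.24. Some genes named below had groups that did not overlap. Of all genes tested, 6.68% lay wholly above the controls and 7.89% wholly below. The named genes were picked for the smallest p-values of their lists, which favours genes without overlap.

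Partners of the topoisomerases had a median log2 fold change of 0.01 over 10 genes, 6 positive and 4 negative (-0.03 without irinotecan replicate 1). Fxr2, a paralogue of the RNA-binding protein FMRP, had 744, 1206 and 1111 normalized counts in irinotecan libraries, against 1416, 1301 and 1337 in controls. The groups did not overlap, with irinotecan replicate 1 far below the rest, and its log2 fold change was -0.43 (SE 0.191) with all libraries and -0.22 without that library. Tdrd3, the partner of TOP3B, was at 0.13 (SE 0.140) with all libraries and 0.04 without that library.

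Enzymes that process trapped topoisomerases by other routes, such as proteases, SUMO and ubiquitin ligases and nucleases, had a median of -0.06 over 21 genes, 10 positive and 11 negative (0.0038 without irinotecan replicate 1). Ercc1, a subunit of the XPF-ERCC1 nuclease, had 1747, 3276 and 2802 normalized counts in irinotecan libraries, against 4342, 3450.2 and 4147 in controls. All irinotecan libraries lay below the controls, and the log2 fold change of -0.65 (SE 0.231) did not pass (limma adjusted p = 0.743). It was -0.39 without irinotecan replicate 1, and the gene shares 511 bases with Cd3eap on the opposite strand. Sumo2, a modifier protein gene with near-identical copies that may share its reads, had 80.1, 611 and 463 normalized counts with irinotecan, against 901, 439 and 768 in controls, and its log2 fold change of -1.24 (SE 0.681) was -0.34 without irinotecan replicate 1.

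Single-strand break repair genes, which finish what TDP1 starts, had a median of -0.01 over 11 genes, 5 positive and 6 negative (0.05 without irinotecan replicate 1). Aplf, an end-processing factor, was at 0.23 (SE 0.173). Parp1, the sensor of nicked DNA, had 1818, 1759 and 1998 normalized counts with irinotecan, against 1719, 1599.7 and 1717 in controls, which do not overlap although the log2 fold change was 0.15 (SE 0.122). End-joining and homologous recombination genes, which act after TDP2, had a median of 0.05 over 17 genes, 10 positive and 7 negative (0.09 without irinotecan replicate 1). The recombination mediator Brca2 stood at 0.29 (SE 0.176) and was at 0.17 without irinotecan replicate 1, and the ligase partner Xrcc4 had -0.28 (SE 0.167). Xrcc4 shares 113140 bases of its span with the antisense gene Gm4117 (mean of 152 normalized counts) and 486 bases with Tmem167 on the opposite strand (2254).

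A list of the RNase H2 genes with Rnaseh1 and Samhd1 had a median of -0.07 over 5 genes. RNase H2 removes ribonucleotides from DNA, a task in which topoisomerase I is the back-up enzyme. Samhd1, which degrades the building blocks of DNA and is known as interferon-inducible, had 3286, 3454 and 3902 normalized counts in irinotecan libraries, against 2641, 2816 and 2091 in controls. The groups did not overlap, and the log2 fold change was 0.50 (SE 0.154, limma adjusted p = 0.743). Rnaseh2a, the catalytic subunit gene of RNase H2, had -0.08 (SE 0.181), and 0.07 without irinotecan replicate 1, and it shares 181 bases with Prdx2 on the opposite strand (mean of 1886 normalized counts). The median of the 5 genes was 0.24 without that library.

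The setting of Top1mt was read from genes that maintain mitochondrial DNA, with a median of -0.12 over 15 genes, 5 positive and 10 negative (0.02 without irinotecan replicate 1). The helicase gene Twnk was at -0.32 (SE 0.195) and the nuclease gene Exog at 0.32 (SE 0.208), and without irinotecan replicate 1 they were at -0.15 and 0.19. The mitochondrially encoded mRNAs had a median of -0.19 over 12 genes, 2 positive and 10 negative, and 0.12 without irinotecan replicate 1. The widest values were those of mt-Co2 (-0.997, SE 0.537) and mt-Co3 (0.81, SE 0.468), both respiratory chain subunits, which were at -0.30 and 0.18 without that library. Nuclear copies of mitochondrial genes may share these reads.

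**Figure D4:**
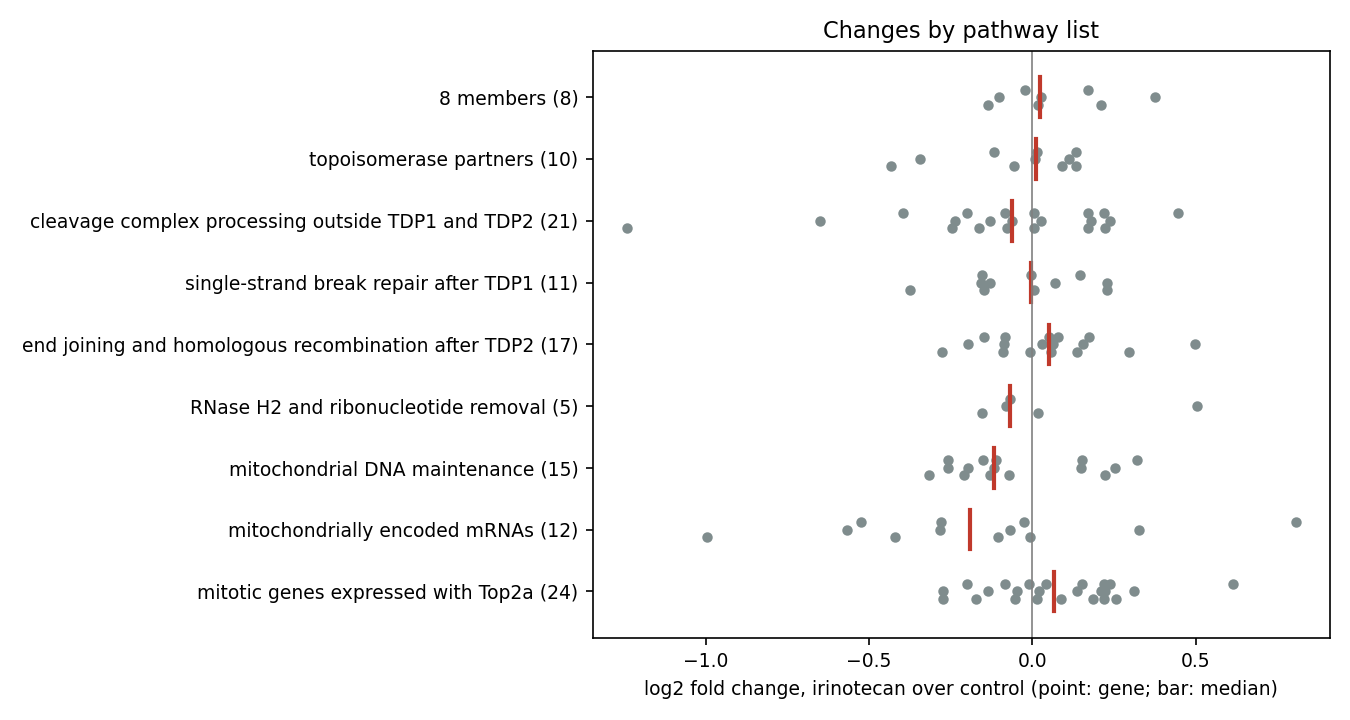
Log2 fold change of irinotecan over control (x axis) for each tested gene (points) of the 8 members and of 8 pathway lists, with the number of genes in brackets and the median as a bar. All medians lie between -0.19 and 0.07, and no gene shown passed the test.

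Some markers of other cells in the tumour lay lower in irinotecan libraries, although limma called none of them. The summed normalized counts of 5 endothelial markers were 1338 to 1852 in irinotecan libraries, against 2161 to 2485 in controls. Of these markers, 4 lay below all controls in each irinotecan library, against 7.89% of all genes tested, and Kdr overlapped. The 6 macrophage markers summed to 5187 to 9867 with irinotecan, against 10369.6 to 12635 in controls, with the lowest sum in irinotecan replicate 1. Of these, Mrc1, Adgre1 and Csf1r lay below all controls in each irinotecan library, against 7.89% of all genes tested. Cd68, C1qa and C1qb overlapped. The median log2 fold change of the 6 was -0.55 with all libraries and -0.16 without irinotecan replicate 1, where C1qa was at 0.26. For the endothelial markers the median was -0.67 with all libraries and -0.46 without that library. The 5 neutrophil markers summed to 134.5 to 209.8 with irinotecan, against 291 to 504.5 in controls, with Retnlg at 0 in irinotecan replicate 3. Among these 5, Csf3r and Cxcr2 lay below all controls in each irinotecan library, against 7.89% of all genes tested, and S100a8, S100a9 and Retnlg overlapped. Cxcr2 had only 1.03 to 7.09 normalized counts with irinotecan. The median log2 fold change of the 4 neutrophil markers tested was -1.37 with all libraries and -1.51 without irinotecan replicate 1. Csf3r moved from -0.89 to -0.30 without that library. The sums of 6 T cell markers, 206 to 428 with irinotecan and 230.5 to 316 in controls, overlapped, as did those of 6 fibroblast markers and 6 skeletal muscle markers, where Ckm was at 0 in irinotecan replicate 1 and control replicate 2 and Myh4 and Myh1 in control replicate 2. Ptprc, the leukocyte marker, had 1023 to 1453 with irinotecan, against 1170 to 1450 in controls. The part of these cells in the values of the 8 genes was not tested.

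By the profile of log2 values over the 6 libraries, the genes most like Top1 were Brat1, 1700021F05Rik and Skap2, with root mean square differences of 0.020, 0.030 and 0.037 after centring, against a median of 0.27 over the other protein-coding genes tested. Those most like Top2a were Invs, Znfx1 and Birc2, at 0.036, 0.038 and 0.041, against a median of 0.34. With 6 libraries and this many genes some profiles lie close to any gene, and Invs, which shares bases with Tex10, and Znfx1, which shares bases with Zfas1, both have a partner on the opposite strand.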

How the data were processed

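The submitters' processing notes name CASAVA, fastp, HISAT2 2.0.5, featureCounts 1.5.0-p3, DESeq2 1.20.0 and GRCm38 (mm10). They do not say what each tool was used for, and the sources used here give neither strand setting nor annotation release. The authors deposited 1 table, with a normalized signal for every gene and library, obtained by dividing read counts by a single factor for the library. That reading rests on the values, since 100% of them were whole multiples of the worth of 1 read at a tolerance of 1e-06, which gave back the reads. The table also holds the authors' log2 fold changes and p-values, per the file headers, and gene lengths.

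Since the deposited values are normalized, the test was limma 3.58.1 in R 4.3.3 (variance trend over level) on log2(normalized count + 1), for the 14639 genes whose normalized counts averaged 10 or more, two-sided, with Benjamini-Hochberg adjustment over all of them and the group as the only term. Fold changes refer to these log2 values and understate the change of low genes, and 95% intervals come from the same fit. Samples were grouped by title. The code was first tested on simulated data. Alternatives were other pseudocounts and filters, quantile and TMM scaling, edgeR 4.0.16 and DESeq2 1.42.0 on the recovered reads, library weights, protein-coding genes, a replicate block and each library left out. A correction for GC content (from GENCODE M21, for 99.9% of genes tested) and length, and edgeR and DESeq2 without irinotecan replicate 1, were chosen after seeing the data.

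The members and lists were chosen with earlier results of these data known. The text names all members, the 2 genes of each pathway list with the smallest unadjusted p, and the 3 profiles most like Top1 and Top2a. No molecular identifiers are named in the labels, so reads may be copies of one molecule and depth speaks to counting error alone. With no strand setting given, it is not known whether reads of overlapping genes on opposite strands were told apart. Promoter sequences are those of RefSeq.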

Additional observations from a re-analysis of the deposited data

How the results depend on the processing

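Under all 20 alternatives 0 of the 8 members were called, and the log2 fold changes of Top2a (0.20 to 0.46) and Top3b (0.08 to 0.27) stayed positive. Top2a had an unadjusted limma p of 0.0474 with quantile normalization and 0.0497 without irinotecan replicate 2. In those fits 981 and 1340 of the 14639 genes tested were under 0.05 before adjustment. Over all genes 0 were called, but DESeq2 called 52 (29 higher and 23 lower), limma with library weights 52 (30 and 22), and, without irinotecan replicate 1, edgeR 2 and DESeq2 162 (80 and 82). Leaving out a library in turn gave 0 to 2 calls by limma. Signs turned as follows, and the cause was not tested. With quantile normalization Top1 was at -0.030 and Top1mt at 0.052. Corrected for GC content and length, Top1 was at -0.19, Top1mt at 0.11, Top2b at -0.12 and Tdp2 at -0.0089. Library weights put Top1mt at 0.047, and edgeR and DESeq2 without irinotecan replicate 1 put it at 0.062 and 0.059, and edgeR then put Tdp1 at 0.00075. With a library left out, the ranges were -0.054 to 0.11 for Top1, -0.075 to 0.061 for Top1mt, -0.23 to 0.0034 for Top3a and -0.038 to 0.080 for Tdp2, which span 0, and 0.13 to 0.27 for Top2b and -0.30 to -0.01 for Tdp1, which do not. The replicate block called 0 genes and 0 members. Same-numbered libraries deviated together at correlations of -0.114, -0.0087 and -0.213, against -0.05 to 0.158 for pairs with different numbers. With 3 libraries a group these values cannot decide whether the numbers pair the samples, and the labels do not say. The intervals given are for each gene on its own and set no limit of detection.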

Other observations

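Irinotecan replicate 1 differed from the control mean by GC content and length of the gene. Its median log2 difference was 0.31 for genes under 40% GC, 0.23 between 40 and 45% GC and -0.76 above 60% GC, and 0.36 for genes over 8000 bases. Among the members, Top2b has a GC content of 36.6% and stood at 0.37 in this library, Top2a has 43.4% and stood at 0.67, and Top1, with 42.0%, stood at -0.16. Top1, Top2a, Top2b and Top3b are all over 8000 bases long. Top1mt, with 55.2% GC, stood at -0.19, where the median of genes between 55 and 60% GC was -0.38. The part of GC content and length in these values was not tested beyond the trend removal given above.

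The ratio of Top3b to Top3a per kilobase was 1.72, 1.75 and 1.75 in irinotecan libraries, against 1.36, 1.84 and 1.19 in controls. The controls lay on both sides of the irinotecan values, so the groups overlapped. Top3a had only 198 to 285 reads per library.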
